A study of Mus musculus with 17 samples.

Results

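The 10 genes Tgfb1, Itgb8, Tgfbr1, Tgfbr2, Smad3, Smad7, Smurf1, Ski, Skil and Tgfbi belong to the signaling pathway of transforming growth factor β (TGF-β) and were followed in conventional dendritic cells that had met dying tumor cells. They were taken by symbol from the 31091 gene identifiers of the count table, and all 10 passed the filter on low counts in every comparison. The study asked how cDC1s and cDC2s, the main subsets of conventional dendritic cells, respond to apoptotic and to necroptotic tumor cells.

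CD11c+ cells came from spleens of 8-week-old female C57BL/6JRj mice that carried a B16 melanoma secreting FLT3L, a cytokine that expands dendritic cells, and spleens of at least 2 mice were pooled per experiment. The CD11c+ cells were cultured for 6 h, in the presence of GM-CSF, with the whole medium of TC-1 cells, including dead cells, debris and soluble material, and were then sorted into cDC1s (XCR1+ CD8α+ SIRPα-) and cDC2s (SIRPα+ CD11b+ XCR1-). The tumor line TC-1 derives from lung epithelium of C57BL/6 mice and carries H-ras together with the E6 and E7 antigens of HPV16. WT medium came from TC-1 cells without an inducible death gene, BimS medium from a subline that undergoes apoptosis through inducible BimS, and RIPK3 medium from a subline that undergoes necroptosis through inducible RIPK3. Each subline is a single-cell clone, and the inducer cumate was given for 24 h to WT cells as well. There were 3 samples in each of the 6 groups except cDC2s with RIPK3 medium, which had 2. The labels do not say whether replicates came from separate animals or cultures, so p-values measure the spread between these samples.

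TGF-β is secreted in a latent complex, from which integrins such as αvβ8 release the active ligand. The ligand brings together the type II receptor and the type I receptor, which phosphorylates Smad2 and Smad3, and these enter the nucleus with Smad4. Smad7, Smurf1, Ski and Skil restrain the signal at the receptor or at the Smad complex, and Smad7 and Skil are themselves target genes of it. In dendritic cells the pathway is known for its part in tolerance and in the induction of regulatory T cells.

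The libraries held between 16095159 and 21645289 counts (median 18986002). The sorted subsets carried their own markers: 9 cDC1 markers summed to between 1412 and 1738 CPM (counts scaled by library size after TMM normalization) in cDC1s and to between 99.0 and 132 CPM in cDC2s, and 8 cDC2 markers summed to between 287 and 375 CPM in cDC2s and to between 2.63 and 4.13 CPM in cDC1s. Some of these markers were themselves called between media within their subset. In cDC1s Clec9a, Tlr3 and Xcr1 rose and Irf8, Wdfy4 and Itgae fell with BimS medium, and with RIPK3 medium Clec9a, Cd8a and Xcr1 rose and Irf8, Wdfy4 and Itgae fell. Irf8, a transcription factor that cDC1s need, stood at 309 ± 27.7 CPM under WT medium, against 184 ± 8.70 CPM for BimS and 176 ± 8.45 CPM for RIPK3 medium (SD, n = 3), and Xcr1 from 152 to 207 and 226 CPM. In cDC2s Clec4a4 rose and Irf4 fell with both debris media, and Cd209a and Clec10a fell with RIPK3 medium. The part of these changes in the results of the members was not tested. Of 12 genes that mark TC-1 or other adherent cells, 11 were in the table, and by edgeR 0 of 11 tested in cDC1s and 0 of 9 tested in cDC2s passed in a comparison between media (at most 1 and 3 at an unadjusted p under 0.05). They summed to between 5.39 and 8.23 CPM in cDC1s. In cDC2s they summed to between 33.3 and 42.0 CPM with WT medium, 23.5 and 37.0 CPM with BimS medium and 23.3 and 28.5 CPM with RIPK3 medium. Most of the cDC2 sum was Cdh1, with means of 32.7, 25.6 and 20.4 CPM. The keratins Krt8, Krt18 and Krt7 had means of at most 0.168 CPM in the cDC2 groups. In these bulk samples, fewer cells of a type and less RNA per cell cannot be told apart.

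The stretch of 250 bases before the outermost annotated start is shown for 5 of the genes, on the strand of the gene and in the build GRCm39. Itgb8 (chr12:119202585-119202834, minus strand), Smad3 (chr9:63665477-63665726, minus strand), Smurf1 (chr5:144902867-144903116, minus strand) and Tgfbi (chr13:56757086-56757335, plus strand) are shown because they rose together in cDC1s with BimS medium, and Skil (chr3:31148566-31148815, plus strand) because it fell there. Smad7, which rose there too, is not shown and was not searched. Capitals mark the SMAD box, the short DNA word bound by Smad3 and Smad4, searched as CAGAC on either strand (GTCTG when read on the other).
Itgb8: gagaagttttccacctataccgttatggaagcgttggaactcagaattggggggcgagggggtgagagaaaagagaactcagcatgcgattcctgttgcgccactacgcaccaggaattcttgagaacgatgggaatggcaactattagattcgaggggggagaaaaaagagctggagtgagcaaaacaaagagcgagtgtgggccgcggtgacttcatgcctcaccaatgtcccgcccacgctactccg
Smad3: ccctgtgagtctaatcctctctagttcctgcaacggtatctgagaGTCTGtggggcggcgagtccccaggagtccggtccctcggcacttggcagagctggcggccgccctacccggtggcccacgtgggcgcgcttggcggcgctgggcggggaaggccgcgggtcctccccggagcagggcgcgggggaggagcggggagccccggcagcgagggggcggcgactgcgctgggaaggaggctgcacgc
Smurf1: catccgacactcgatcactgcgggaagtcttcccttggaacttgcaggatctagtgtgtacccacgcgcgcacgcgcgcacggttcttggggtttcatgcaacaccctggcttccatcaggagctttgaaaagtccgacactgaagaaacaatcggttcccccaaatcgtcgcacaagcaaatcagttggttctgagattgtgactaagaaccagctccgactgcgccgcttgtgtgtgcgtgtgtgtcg
Tgfbi: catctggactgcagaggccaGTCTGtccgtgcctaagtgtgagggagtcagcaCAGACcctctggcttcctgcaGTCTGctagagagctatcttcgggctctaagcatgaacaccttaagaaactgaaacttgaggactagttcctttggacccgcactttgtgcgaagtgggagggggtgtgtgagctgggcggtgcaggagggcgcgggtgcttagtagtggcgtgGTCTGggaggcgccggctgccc
Skil: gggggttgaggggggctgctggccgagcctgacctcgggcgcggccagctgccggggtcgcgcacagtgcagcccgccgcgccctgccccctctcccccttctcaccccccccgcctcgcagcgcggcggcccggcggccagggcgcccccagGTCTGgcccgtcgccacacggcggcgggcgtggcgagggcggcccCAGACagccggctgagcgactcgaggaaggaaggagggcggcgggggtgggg
The Tgfbi stretch held 4 SMAD boxes, which begin 230, 197, 176 and 22 bases before the start. The Skil stretch held 2, at 97 and 52 bases, the Smad3 stretch held 1, at 205 bases, and the Itgb8 and Smurf1 stretches held 0. A SMAD box was present in 42.8% of the 17437 stretches of protein-coding genes of the same length, and 0.407% held 4 or more. Over the 9 members searched, 5 held a SMAD box, 0 held the palindrome GTCTAGAC (0.264% of all stretches) and 0 held an AP-1 site, TGAGTCA or TGACTCA (3.67% of all stretches). The GC box, GGGCGG or CCGCCC, was present in 7 of the 9 and in 35.4% of all stretches. Such matches describe the letters of these windows only.

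Levels per length, in CPM per kb of exon, put Tgfbi and Skil highest among the members and Itgb8 lowest in both subsets with WT medium. In cDC1s the mean level per kb was 115 ± 4.39 for Tgfbi, 85.8 ± 2.16 for Skil and 36.8 ± 0.211 for Tgfb1 (SD, n = 3). Smurf1 (10.5), Ski (9.42), Tgfbr2 (8.53), Smad3 (7.03), Tgfbr1 (6.86) and Smad7 (4.78 CPM per kb) followed, and Itgb8 was at 0.0318 CPM per kb. Of neighbors in this order, the pair of Smad3 and Tgfbr1 had ranges that overlapped. In cDC2s Skil stood at 42.6 ± 7.85, Tgfbi at 27.8 ± 7.87 and Tgfb1 at 27.4 ± 1.48 CPM per kb (SD, n = 3), and the ranges of these 3 genes overlapped from one to the next. Smad7 came next in cDC2s (9.60 CPM per kb), with ranges that overlapped those of Ski (8.84) and Smurf1 (8.71), ahead of Tgfbr2 (2.81), Tgfbr1 (2.66), Smad3 (0.471) and Itgb8 (0.138 CPM per kb).

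**Figure D1:**
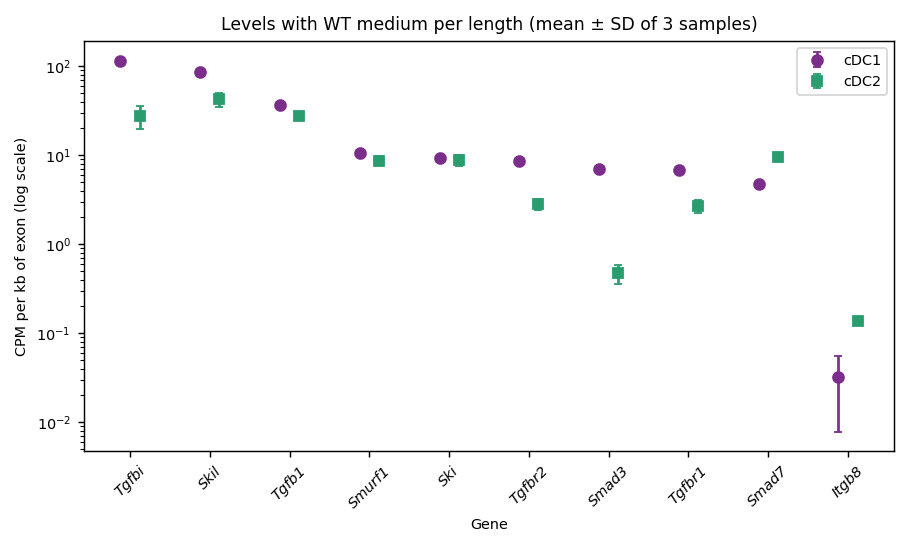
Mean level with WT medium of the 10 genes, in CPM per kb of exon on a log axis, for cDC1s (circles) and cDC2s (squares), with the SD of 3 samples as bars. Smad3 lies at 7.03 in cDC1s and 0.471 in cDC2s, whereas Smad7 lies at 4.78 in cDC1s and 9.60 in cDC2s.

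Between the subsets, fitted over all media with the medium as a term, 9 of the 10 members differed by edgeR, against 59.8% of all genes tested. Of these members 7 were higher in cDC1s (30.4% of all genes) and 2 higher in cDC2s (29.4%). The median difference of the members on the log2 scale was 0.63 toward cDC1s and that of all genes 0.03. Both receptor chains, the transducer Smad3, Skil and the target Tgfbi stood higher in every cDC1 sample than in any cDC2 sample. Itgb8 and Smad7 stood higher in every cDC2 sample than in any cDC1 sample. A wider list of the pathway, described below without these members, leaned the other way. Of 86 genes tested, 23 were called higher in cDC1s and 38 in cDC2s, with a median log2 difference of -0.11. Smad2, Smad4 and Smad1 were among those higher in cDC2s.

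Among the members Smad3, which carries the signal from the receptor to the nucleus, differed by the largest factor between the subsets. Its level was between 39.2 and 56.4 CPM in cDC1s and between 1.61 and 3.38 CPM in cDC2s, a log2 difference of 4.15 ± 0.102 (SE), or 17.7-fold (edgeR, adjusted p = 1.31e-21). For scale, Xcr1, on which the subsets were sorted, had a mean of 152 CPM in cDC1s and 0.507 CPM in cDC2s with WT medium, and Clec9a, another cDC1 gene, 241 and 4.91 CPM. Tgfbr1, the type I receptor, was 2.51-fold higher in cDC1s (log2 1.33 ± 0.0612, adjusted p = 3.19e-18), and Tgfbr2, the type II receptor, 2.65-fold higher (log2 1.40 ± 0.0616, adjusted p = 4.32e-18). Tgfbi was 3.59-fold higher in cDC1s (adjusted p = 8.74e-08) and Skil 1.79-fold higher (adjusted p = 9.88e-09). Smurf1 (1.34-fold, adjusted p = 2.08e-07) and Tgfb1 (1.15-fold, adjusted p = 0.000613) were also higher in cDC1s in this fit, but samples of the subsets overlapped. With RIPK3 medium the mean of Tgfb1 was 199 CPM in cDC1s and 201 CPM in cDC2s, so its difference over all media did not hold there. Itgb8 was 5.68-fold higher in cDC2s (adjusted p = 7.09e-13) and Smad7 2.31-fold higher (adjusted p = 2.01e-18). Ski, at a log2 difference of -0.01 ± 0.0495, did not pass the test (adjusted p = 0.935).

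With BimS medium, cDC1s held more mRNA of Tgfbi, Smurf1, Smad3, Smad7 and Itgb8 than with WT medium and less of Skil. These were 6 of the 10 members (5 higher, 1 lower), against 13.2% of all genes tested (7.31% higher, 5.89% lower). Scaled by total counts only, 8 members were called (5 higher, 3 lower), with Tgfbr1 (log2 -0.19, adjusted p = 0.0466) and Ski (log2 -0.22, adjusted p = 0.00792) added as lower, while the calls over all genes went from 2576 to 3000. Under limma on log2 counts 4 members were called, without Smad3 (adjusted p = 0.0605) and Smad7 (0.12). The median difference of the members was 0.14 on the log2 scale and that of all genes 0.00. The study itself named Itgb8, Tgfbi, Smad3 and Smurf1 with TGF-β from these samples, so the count is not independent evidence of their direction. For ITGB8 the study also reported, by flow cytometry, more surface protein on cDC1s after apoptotic than after necroptotic cells. With RIPK3 medium, 5 of the 10 members passed the test in cDC1s (2 higher, 3 lower), against 16.5% of all genes tested (8.35% higher, 8.18% lower). The median difference was 0.12 for the members and -0.01 for all genes. Smad7 and Tgfbi were higher than with WT medium, and Tgfbr1, Skil and Ski lower.

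In cDC2s, 2 members rose with BimS medium, Itgb8 and Smad7, against 7.01% of all genes tested (3.8% higher, 3.21% lower), with a median difference of 0.14 for the members and -0.02 for all genes. With RIPK3 medium 3 members rose in cDC2s, Smad7, Tgfb1 and Tgfbr2, against 7.21% of all genes tested (3.93% higher, 3.28% lower), with a median of 0.24 for the members and -0.02 for all genes. With the replicate number as a block, which removes a shared level of samples with the same number, the counts in cDC2s became 5 for BimS and 7 for RIPK3 medium, against 21.3% and 21.4% of all genes in the same fit. In cDC1s they became 7 and 6, against 17.9% and 21% of all genes. In cDC2s the block added Tgfbi, Tgfb1 and Tgfbr2 for BimS medium, and Tgfbi, Tgfbr1, Smurf1 and Skil for RIPK3 medium. All comparisons with WT medium within a subset share the same WT samples.

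**Figure D2:**
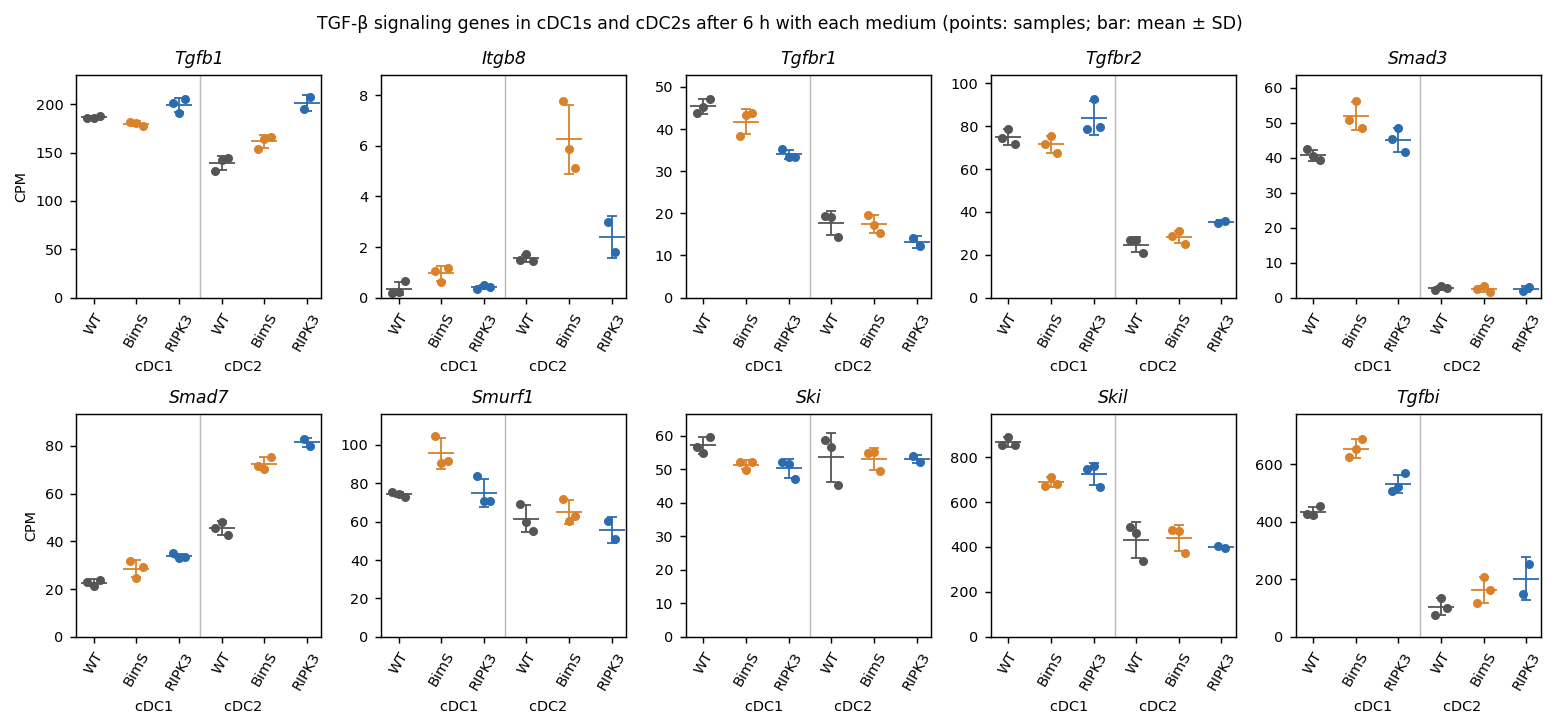
Level of each of the 10 genes in CPM in every sample (points), with the mean and SD of each group (bars), for cDC1s and cDC2s with WT, BimS and RIPK3 medium. Smad7 is higher with both debris media in both subsets, and Itgb8 is highest in cDC2s with BimS medium, at between 5.13 and 7.78 CPM.

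Tgfb1 (ENSMUSG00000002603, chr7:25386390-25404506) encodes the ligand TGF-β1. In cDC2s its level was 131, 143 and 145 CPM with WT medium, 154, 164 and 166 CPM with BimS medium and 195 and 207 CPM with RIPK3 medium. The groups did not overlap, and the RIPK3 samples were highest. The log2 difference between RIPK3 and WT medium was 0.52 ± 0.0871 (SE), 1.44-fold (edgeR, adjusted p = 0.000456). That between BimS and WT medium, 0.21 ± 0.0788, did not pass (adjusted p = 0.129) but had an adjusted p of 2.99e-05 with the replicate block, and that between RIPK3 and BimS medium, 0.31 ± 0.0873, had 0.167 without and 1.15e-08 with the block.

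In cDC1s Tgfb1 was at 186, 186 and 188 CPM with WT medium, 182, 180 and 177 CPM with BimS medium and 201, 191 and 205 CPM with RIPK3 medium. Neither debris medium passed against WT medium (BimS -0.06 ± 0.0475 on the log2 scale, adjusted p = 0.563, and RIPK3 0.09 ± 0.0474, adjusted p = 0.219). RIPK3 against BimS medium gave 0.15 ± 0.0475 (adjusted p = 0.0745, and 0.0125 with the block, 0.0448 by DESeq2 and 0.0424 with filterByExpr). Tgfb1 was the 1 member whose response to RIPK3 medium differed between the subsets in the test of that difference, against 1.14% of all genes tested (0.66% with the higher response in cDC1s, 0.477% in cDC2s). The response in cDC1s was lower by 0.44 ± 0.0898 on the log2 scale than that in cDC2s (adjusted p = 0.00758). This call was lost without the second sample of cDC2s with RIPK3 medium (adjusted p = 0.103), which leaves 1 sample in that group, and under limma on log2 counts (adjusted p = 0.636). The cDC2 response itself was also lost under limma on log2 counts (adjusted p = 0.143).

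Itgb8 (ENSMUSG00000025321, chr12:119121748-119202584), the β8 chain of the integrin αvβ8 that releases TGF-β from its latent complex, was higher with BimS than with WT medium in both subsets. In cDC2s its level was 1.49, 1.72 and 1.46 CPM with WT medium, 7.78, 5.90 and 5.13 CPM with BimS medium and 2.97 and 1.82 CPM with RIPK3 medium. These rest on 27 to 30 counts per sample with WT medium, 86 to 128 with BimS medium and 31 to 46 with RIPK3 medium. The BimS samples lay above all others. The log2 difference of BimS from WT medium was 2.01 ± 0.223 (SE), 4.02-fold (edgeR, adjusted p = 5.26e-06). In the comparison of RIPK3 with BimS medium Itgb8 was the 1 member that passed in cDC2s, against 0.379% of all genes tested (0.218% lower), at -1.40 ± 0.245 (adjusted p = 0.0107). That call was lost without the first BimS sample (adjusted p = 0.0763), the first RIPK3 sample (adjusted p = 0.0538) or the second RIPK3 sample (adjusted p = 0.617). RIPK3 against WT medium, at 0.60 ± 0.283, did not pass (adjusted p = 0.261).

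In cDC1s the counts of Itgb8 were few. There were 4, 4 and 15 counts with WT medium, 21, 13 and 23 with BimS medium and 7, 10 and 7 with RIPK3 medium, or 0.199, 0.203 and 0.674 CPM, 1.07, 0.608 and 1.19 CPM, and 0.354, 0.502 and 0.403 CPM. The third WT sample lay above the second BimS sample, so these groups overlapped. The difference of BimS from WT medium was 1.35 ± 0.420 (adjusted p = 0.0261). The call was lost without WT replicate 1 (adjusted p = 0.148), WT replicate 2 (0.133), BimS replicate 1 (0.0824) or BimS replicate 3 (0.133), and the difference was 2.20 without WT replicate 3. RIPK3 against BimS medium gave -1.16 ± 0.418 (adjusted p = 0.125), and RIPK3 against WT medium 0.19 ± 0.493 (adjusted p = 0.876). The response of Itgb8 to BimS medium was not shown to differ between the subsets (log2 difference -0.67 ± 0.517, adjusted p = 0.818).

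Of the receptor chains, Tgfbr1 fell with RIPK3 medium in cDC1s and Tgfbr2 rose with it in cDC2s. Tgfbr1 (ENSMUSG00000007613, chr4:47353134-47414931), whose kinase phosphorylates the Smads, was at 43.7, 45.3 and 47.2 CPM in cDC1s with WT medium, 38.3, 43.3 and 43.8 CPM with BimS medium and 35.3, 33.3 and 33.4 CPM with RIPK3 medium. All RIPK3 samples lay below all others. RIPK3 against WT medium gave -0.42 ± 0.0663 (edgeR, adjusted p = 7.76e-06) and RIPK3 against BimS medium -0.30 ± 0.0667 (adjusted p = 0.0051), of which the second was lost without BimS replicate 3 (adjusted p = 0.0539). BimS against WT medium, at -0.12 ± 0.0648, did not pass (adjusted p = 0.276, and 0.0466 with total counts only).

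In cDC2s Tgfbr1 was at 19.4, 19.2 and 14.3 CPM with WT medium, 19.6, 17.3 and 15.3 CPM with BimS medium and 14.2 and 12.1 CPM with RIPK3 medium. The RIPK3 samples were again lowest, the upper one just below the third WT sample. The difference between RIPK3 and WT medium of -0.44 ± 0.154 did not pass (adjusted p = 0.105), whereas the fit with the replicate block gave -0.55 (adjusted p = 4.52e-06), and -0.53 against BimS medium (adjusted p = 2.39e-05). Without the block, the difference from WT medium also passed without the third WT sample (adjusted p = 0.00764), with total counts only (0.0302), with no filter (0.0441) and under limma on log2 counts (0.0174).

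Tgfbr2 (ENSMUSG00000032440, chr9:115913361-116004800), which binds the ligand first, was at 26.7, 26.9 and 20.7 CPM in cDC2s with WT medium, 29.0, 30.9 and 25.1 CPM with BimS medium and 34.7 and 35.8 CPM with RIPK3 medium. Both RIPK3 samples lay above all others, and RIPK3 against WT medium gave 0.50 ± 0.126 (adjusted p = 0.0165). This was lost without RIPK3 replicate 1 (adjusted p = 0.116), without RIPK3 replicate 2 (0.193) and under limma on log2 counts (0.224). BimS against WT medium gave 0.19 ± 0.115 (adjusted p = 0.411, and 0.0331 with the block). In cDC1s Tgfbr2 was at 74.6, 78.9 and 71.5 CPM with WT medium, 71.7, 75.3 and 67.6 CPM with BimS medium and 78.7, 92.8 and 79.7 CPM with RIPK3 medium. RIPK3 exceeded BimS medium by 0.23 ± 0.0621 (adjusted p = 0.028), a call that was lost without BimS replicate 1 (0.0571), BimS replicate 3 (0.197) or RIPK3 replicate 2 (0.295) and under limma on log2 counts (0.653). RIPK3 against WT medium gave 0.16 ± 0.0619 (adjusted p = 0.0755, and 0.0112 with the block, 0.025 without RIPK3 replicate 1 and 0.0184 without RIPK3 replicate 3).

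Smad3 (ENSMUSG00000032402, chr9:63554049-63665476) rose in cDC1s with BimS medium. Its level was 42.4, 40.5 and 39.2 CPM with WT medium, 50.9, 56.4 and 48.5 CPM with BimS medium and 45.4, 48.4 and 41.5 CPM with RIPK3 medium. The BimS samples lay above all others, by a narrow margin over the second RIPK3 sample. Compared with WT medium, BimS medium gave 0.35 ± 0.067 (edgeR, adjusted p = 0.000183), which was lost under limma on log2 counts (adjusted p = 0.0605). RIPK3 against WT medium gave 0.15 ± 0.0679 (adjusted p = 0.148, and 0.0264 without RIPK3 replicate 3). RIPK3 against BimS medium gave -0.20 ± 0.0669 (adjusted p = 0.0851, and 0.00892 with the block and 0.0472 without RIPK3 replicate 2). In cDC2s, where Smad3 rested on 27 to 65 counts per sample, no comparison between media passed, with adjusted p between 0.836 and 0.975.

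Smad7, the inhibitory Smad that competes with Smad3 for the receptor and recruits Smurf ligases to it, rose with both debris media in both subsets, as Tgfbi also did with the replicate block. In cDC1s Smad7 was at 23.0, 21.1 and 23.9 CPM with WT medium, 31.7, 24.9 and 29.2 CPM with BimS medium and 34.9, 33.2 and 33.4 CPM with RIPK3 medium. The groups did not overlap. The log2 difference from WT medium was 0.33 ± 0.0801 for BimS (adjusted p = 0.0031) and 0.58 ± 0.0793 for RIPK3 medium (adjusted p = 6.24e-07). The former was lost without BimS replicate 1 (adjusted p = 0.0519) and under limma on log2 counts (0.12). The difference between RIPK3 and BimS medium was 0.25 in the blocked fit (adjusted p = 0.00531), and did not pass without the block (adjusted p = 0.0693), except with no filter (0.031) and without BimS replicate 1 (0.0155) or RIPK3 replicate 3 (0.0487).

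In cDC2s Smad7 was at 45.6, 48.3 and 42.7 CPM with WT medium, 71.8, 70.4 and 75.5 CPM with BimS medium and 82.8 and 80.2 CPM with RIPK3 medium. The groups again did not overlap, with RIPK3 highest. BimS against WT medium gave 0.67 ± 0.0845, or 1.59-fold (adjusted p = 2.43e-05), and RIPK3 against WT medium 0.83 ± 0.0929, or 1.78-fold (adjusted p = 4.33e-06). Both calls held in each of the 15 alternatives run. The 2 debris media differed by 0.16 ± 0.0928 (adjusted p = 0.664). The responses of Smad7 were not shown to differ between the subsets after adjustment (log2 difference of cDC1 from cDC2 response -0.34 ± 0.114 for BimS, adjusted p = 0.236, and -0.26 ± 0.12 for RIPK3 medium, adjusted p = 0.515, by edgeR).

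**Figure D3:**
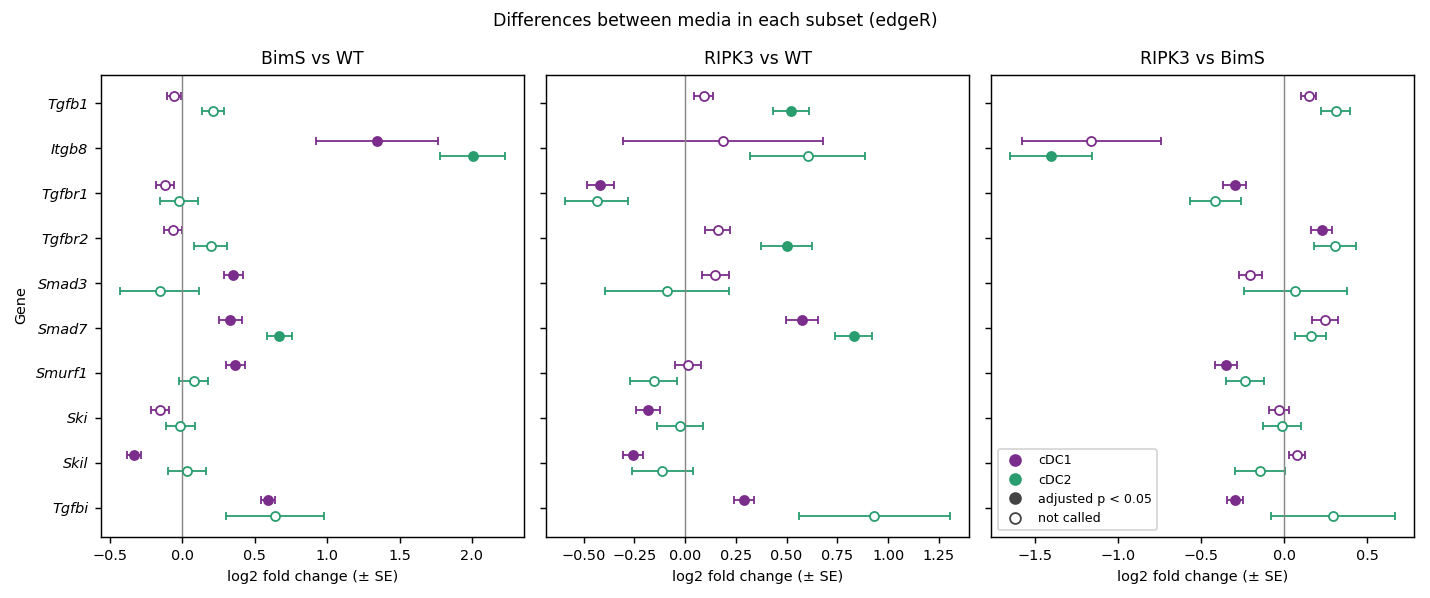
Log2 fold change with its SE (bars) of the 10 genes between media in cDC1s and cDC2s, from edgeR, with filled points where the adjusted p was under 0.05. Smad7 is filled in both subsets against WT medium, Itgb8 has wide errors in cDC1s (SE of up to 0.493), and Tgfbi in cDC2s is open in spite of differences of 0.64 and 0.93 from WT medium.

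Smurf1 (ENSMUSG00000038780, chr5:144813300-144902866), a ubiquitin ligase that marks Smads and the receptor for degradation, rose in cDC1s with BimS medium and was higher there than with RIPK3 medium. It was at 75.2, 74.4 and 73.0 CPM with WT medium, 105, 90.5 and 91.5 CPM with BimS medium and 83.6, 70.6 and 70.8 CPM with RIPK3 medium. The BimS samples lay above all others. BimS against WT medium gave 0.37 ± 0.0637 (edgeR, adjusted p = 6.99e-05), RIPK3 against BimS medium -0.35 ± 0.0639 (adjusted p = 0.000776) and RIPK3 against WT medium 0.02 ± 0.0645 (adjusted p = 0.924). Both calls held in all 16 alternatives run. In cDC2s Smurf1 was at 69.1, 59.9 and 55.4 CPM with WT medium, 71.9, 60.5 and 62.7 CPM with BimS medium and 60.3 and 51.0 CPM with RIPK3 medium. RIPK3 against BimS medium gave -0.23 ± 0.115 there (adjusted p = 0.598), and -0.29 with the block (adjusted p = 0.000211). Against WT medium it gave -0.15 ± 0.115 (adjusted p = 0.541, and 0.0101 with the block).

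Skil (ENSMUSG00000027660, chr3:31148816-31176740) and Ski (ENSMUSG00000029050, chr4:155238532-155307543) are related corepressors that hold Smad complexes inactive on DNA. Skil fell in cDC1s with both debris media, from 856, 892 and 852 CPM with WT medium to 671, 713 and 679 CPM with BimS medium and 748, 760 and 669 CPM with RIPK3 medium. All WT samples lay above all others. The log2 difference was -0.33 ± 0.0481 for BimS (edgeR, adjusted p = 2.04e-06) and -0.26 ± 0.0481 for RIPK3 medium (adjusted p = 0.000112), and both held in all 16 alternatives run. In cDC2s Skil was at 487, 463 and 339 CPM with WT medium, 474, 473 and 373 CPM with BimS medium and 405 and 397 CPM with RIPK3 medium. The third sample was lowest with WT and with BimS medium, and it has no RIPK3 counterpart. RIPK3 against WT medium gave -0.11 ± 0.151 (adjusted p = 0.787), and -0.24 with the block (adjusted p = 7.66e-06). The difference of RIPK3 from BimS medium was -0.14 ± 0.151 (adjusted p = 0.85), and -0.28 with the block (adjusted p = 2.61e-07).

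Ski was at 56.6, 54.9 and 59.7 CPM in cDC1s with WT medium, 52.0, 49.8 and 52.2 CPM with BimS medium and 52.2, 51.4 and 47.1 CPM with RIPK3 medium. RIPK3 against WT medium gave -0.18 ± 0.0602 (adjusted p = 0.0308), lost in DESeq2 (adjusted p = 0.0535) and without WT replicate 1 (0.0727), WT replicate 3 (0.19) or RIPK3 replicate 3 (0.115). BimS against WT medium gave -0.15 ± 0.0599 (adjusted p = 0.0922, and 0.033 with the block, 0.00792 with total counts only and 0.0373 without RIPK3 replicate 3). In cDC2s Ski lay between 45.3 and 58.8 CPM over all media, with adjusted p of 0.954 to 0.988 between media.

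Tgfbi (ENSMUSG00000035493, chr13:56757336-56787375), a secreted matrix protein named for its induction by TGF-β, was the member with the smallest adjusted p in cDC1s with BimS medium. Its level was 426, 425 and 454 CPM with WT medium, 624, 652 and 687 CPM with BimS medium and 508, 522 and 568 CPM with RIPK3 medium. The groups did not overlap, and RIPK3 samples lay between WT and BimS samples. The log2 difference from WT medium was 0.59 ± 0.0494 for BimS (edgeR, adjusted p = 1.13e-11), and 0.29 ± 0.0494 for RIPK3 (adjusted p = 2.29e-05, lost under limma on log2 counts at 0.274). RIPK3 against BimS medium gave -0.30 ± 0.0493 (adjusted p = 0.000163).

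In cDC2s Tgfbi was at 77.2, 136 and 102 CPM with WT medium, 118, 209 and 163 CPM with BimS medium and 149 and 254 CPM with RIPK3 medium. The second sample was highest and the first lowest with every medium in which both were measured, so that the groups with WT and BimS medium overlapped. The differences from WT medium, 0.64 ± 0.339 for BimS and 0.93 ± 0.373 for RIPK3, did not pass (adjusted p = 0.419 and 0.265). Between samples of the same number, BimS exceeded WT medium by 1.53-, 1.53- and 1.61-fold in 3 of 3 pairs, and RIPK3 exceeded WT medium by 1.93- and 1.87-fold in 2 of 2 pairs. RIPK3 exceeded BimS medium by 1.26- and 1.22-fold. With the replicate block the adjusted p was 6.79e-41 for BimS against WT, 1.99e-64 for RIPK3 against WT and 1.89e-06 for RIPK3 against BimS medium. That fit draws its spread largely from other genes, so p-values this small do not measure the spread of Tgfbi over these few pairs.

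Several marker lists moved with the replicate number in cDC2s, as Tgfbi did. The genes of TC-1 or other adherent cells, mostly Cdh1, summed to 33.3, 42.0 and 35.6 CPM with WT medium, 23.5, 37.0 and 25.5 CPM with BimS medium and 23.3 and 28.5 CPM with RIPK3 medium. The 9 cDC1 markers were also highest in the second cDC2 sample with each medium. In both the adherent cell and the macrophage lists the first sample was lowest. The 11 genes of the macrophage and monocyte list summed to 70.2, 97.5 and 93.0 CPM with WT medium, 68.0, 89.6 and 82.8 CPM with BimS medium and 71.2 and 97.4 CPM with RIPK3 medium, so that the second sample was highest each time. Their sum was lower with BimS than with WT medium in all 3 same-numbered pairs, and with RIPK3 medium it was at 71.2 against 70.2 and 97.4 against 97.5 CPM. By edgeR 1 of the 11, Fcgr1, was called in cDC2s against WT medium, lower with RIPK3 medium. The part of these lists in the spread of Tgfbi was not tested. In cDC1s the macrophage and monocyte list summed to between 58.8 and 69.5 CPM, and of the 10 genes tested Fcgr1 fell with both debris media (log2 -1.03 and -2.12, adjusted p = 6.74e-05 and 6.99e-10), C1qc fell with BimS medium and Ccr2 rose with RIPK3 medium (log2 0.70, adjusted p = 0.00341). Their part in the results in cDC1s was not tested. A list of platelet genes, a cell type rich in TGF-β1, summed to between 4.53 and 6.00 CPM in cDC1s with WT medium, 7.43 and 8.22 CPM with BimS medium and 6.78 and 8.35 CPM with RIPK3 medium, and 1 of the 2 tested, Pf4, rose with both (log2 3.28 and 2.96). Itga2b, the other tested, had means of 4.77, 4.02 and 4.38 CPM, and Gp9, Gp1ba and Gp6 were at 0 or at most 0.017 CPM in the mean of each cDC1 group. In cDC2s the platelet list summed to 6.00, 7.63 and 18.5 CPM with WT medium, of which the third sample stood apart, and to between 6.08 and 7.09 CPM with the debris media. The list's part in these results was not tested. Of 5 plasmacytoid dendritic cell genes, which summed to between 54.2 and 66.0 CPM in cDC1s and 173 and 216 CPM in cDC2s, Tcf4 was called lower in cDC1s with both debris media (means of 43.0, 36.5 and 36.6 CPM) and Bst2 lower in cDC2s with RIPK3 medium (21.8 and 15.0 CPM). Most of the sum in cDC2s was Tcf4 (means of 177, 179 and 158 CPM), and Siglech had a mean of at most 0.565 CPM in any group. Of 7 T and NK cell genes, which summed to at most 3.08 CPM in any sample, Cd5 was called higher in cDC1s with BimS medium (0.352 and 0.857 CPM) and Cd3g lower in cDC2s with BimS medium (0.526 and 0.111 CPM). The 5 B cell genes summed to at most 1.49 CPM in any sample. The part of these lists was not tested.

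**Figure D4:**
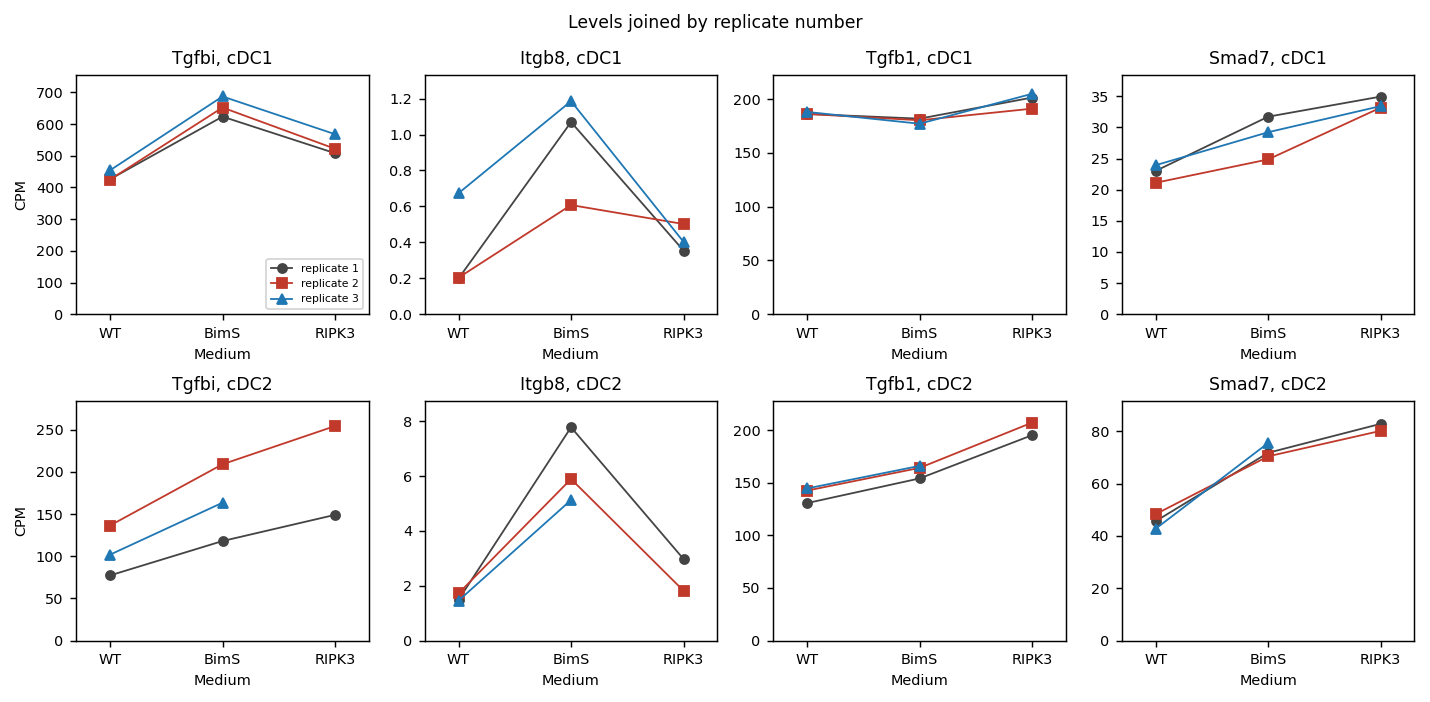
Levels in CPM of Tgfbi, Itgb8, Tgfb1 and Smad7 with each medium, with samples of the same replicate number joined by lines, for cDC1s (upper row) and cDC2s (lower row). The lines of Tgfbi in cDC2s run nearly parallel, from between 77.2 and 136 CPM with WT medium to 149 and 254 CPM with RIPK3 medium, and the third cDC2 line ends at BimS medium.

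The debris media were also set against each other. In cDC1s 4 of the 10 members differed between RIPK3 and BimS medium (Tgfbr2 higher with RIPK3, and Tgfbr1, Smurf1 and Tgfbi higher with BimS medium), against 4.15% of all genes tested (1.94% higher, 2.21% lower with RIPK3), and 7 with the replicate block, against 8.82% of all genes, which added Tgfb1, Smad3 and Smad7. Of these 7, Tgfb1, Tgfbr2 and Smad7 were higher with RIPK3 medium. In cDC2s 1 of the 10 differed, against 0.379% of all genes, and 6 with the block, against 14.3%, which added Tgfb1, Tgfbr1, Smurf1, Skil and Tgfbi. The response to BimS medium was not shown to differ between the subsets for any member after adjustment by edgeR (0 of 10, with 4 at an unadjusted p under 0.05, where 8.51% of all genes were, and 1, Tgfb1, by DESeq2 at an adjusted p of 0.0112 and with the block at 0.0388, where 2.32% of all genes were called), against 0.859% of all genes tested (0.555% with the higher response in cDC1s, 0.304% in cDC2s). For RIPK3 against BimS medium the difference between the subsets passed for 0 of 10 members by edgeR, limma and DESeq2 (0 at an unadjusted p under 0.05), against 0.0314% of all genes tested (0.0314% lower in cDC1s). In the test for BimS medium, Skil had an adjusted p of 0.469, and 0.0173 when no gene was filtered.

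Beyond the members, a list of the pathway and its relatives, with ligands, activators, receptors, Smads, inhibitors and targets of TGF-β and BMP, held 98 further genes, of which 86 were tested in cDC1s and 82 in cDC2s. In cDC1s 9 of them rose and 9 fell with BimS medium, and 12 rose and 11 fell with RIPK3 medium, where 13.2% and 16.5% of all genes were called. Under limma on log2 counts 11 were called with BimS medium, and with the block 23 with BimS and 27 with RIPK3 medium, against 17.9% and 21% of all genes. In cDC2s 8 rose and 5 fell with BimS medium, and 12 rose and 7 fell with RIPK3 medium, where 7.01% and 7.21% of all genes were called, and with the block 27 and 31 were called, against 21.3% and 21.4% of all genes. Between the debris media 12 of 86 tested differed in cDC1s, against 4.15% of all genes, and 3 did under limma on log2 counts. Of the 12, 6 were higher with RIPK3 medium and 6 lower. The naming rule gave Runx3, Sik1 and Junb as higher and Dab2, Id3 and Itgae as lower (edgeR, adjusted p of 0.000184 to 0.0108). The calls of Runx3, Sik1 and Junb were lost under limma. Between the subsets the rule gave Itgae, Acvrl1 and Pmepa1 as higher in cDC1s, and Thbs1, Inhba and Itgb3 as higher in cDC2s. In cDC2s edgeR called 0 of 82 between the debris media (17 at an unadjusted p under 0.05, against 8.59% of all genes), DESeq2 called 1, and the fit with the block 23, against 14.3% of all genes. With no filter edgeR called 2, and without WT replicate 1 it called 1. Without WT replicate 2 the count for BimS against WT medium in cDC2s was 8, and without RIPK3 replicate 2 that for RIPK3 medium was 8.

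Of the activators, Lrrc32, which docks latent TGF-β on the cell surface, was at 161 ± 7.47 CPM (SD, n = 3) in cDC1s with WT medium, 244 ± 17.6 CPM with BimS and 263 ± 16.7 CPM with RIPK3 medium. It rose by 0.60 ± 0.0553 and 0.71 ± 0.0553 on the log2 scale (edgeR, adjusted p = 2.12e-10 and 2.91e-12), and in cDC2s by 0.33 ± 0.0809 and 0.39 ± 0.0897 (adjusted p = 0.0153 and 0.00847), where both calls were lost with scaling by total counts only (0.0857 and 0.0518) and under limma on log2 counts (0.316 and 0.422). The call for BimS medium in cDC2s was lost without BimS replicate 3 (0.0846), and that for RIPK3 medium without RIPK3 replicate 2 (0.175). Thbs1, an activator of latent TGF-β, rose in cDC2s from 49.2 ± 2.79 CPM to 144 ± 15.5 CPM with BimS medium (log2 1.55 ± 0.0936, adjusted p = 1.86e-09) and 138 ± 8.08 CPM with RIPK3 medium (n = 2, log2 1.48 ± 0.101, adjusted p = 9e-09). In cDC1s Thbs1 was at 2.40, 4.18 and 4.11 CPM and did not pass against WT medium in the unblocked fit (log2 0.82 ± 0.273 and 0.78 ± 0.276, adjusted p = 0.0667 and 0.0701), but passed with the block (0.000242 and 0.000322), in DESeq2 (0.0156 and 0.018), under limma on log2 counts (0.0175 and 0.0183) and without a filter (0.000258 and 0.000476). Itgb1, the β1 integrin chain, fell in both subsets, from 1082 to 889 and 823 CPM in cDC1s (log2 -0.28 and -0.39) and from 1133 to 893 and 786 CPM in cDC2s (log2 -0.35 and -0.54), with adjusted p of at most 0.00456. Itgb3, the β3 chain, had adjusted p of 0.331 to 0.968 between media in cDC2s, of which BimS against WT medium (log2 -0.17) had 0.0274 with the block.

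Of ligands and receptors, Acvrl1, a type I receptor that passes TGF-β and BMP9 signals to other Smads, rose with both debris media in both subsets. In cDC1s it was at 136 ± 1.29 CPM with WT medium, 234 ± 5.99 CPM with BimS and 265 ± 5.19 CPM with RIPK3 medium (log2 0.79 ± 0.0472 and 0.97 ± 0.0473, adjusted p = 1.8e-15 and 4.11e-18). In cDC2s it was at 15.9 ± 0.261, 25.3 ± 3.12 and 29.6 ± 4.02 CPM (log2 0.67 ± 0.113 and 0.89 ± 0.124, adjusted p = 0.000572 and 6.14e-05). Acvr1b, the type I receptor of activin, fell with RIPK3 medium in cDC1s (log2 -0.35 ± 0.0802, adjusted p = 0.00151) and with BimS medium in cDC2s (log2 -0.42 ± 0.106, adjusted p = 0.0175, lost without WT replicate 1 or 2 or BimS replicate 2 or 3, at 0.0599 to 0.0824). With BimS medium in cDC1s its adjusted p was 0.0687, and 0.0129 with the block, 0.00947 with total counts only and 0.0429 with no filter. It also passed there without BimS replicate 1 (0.0209), RIPK3 replicate 1 (0.0373) or RIPK3 replicate 3 (0.0241). With RIPK3 medium in cDC2s it was 0.0847, and 0.000263 with the block, 0.0183 with total counts only, 0.0351 under limma on log2 counts and 0.0235 without WT replicate 3. Inhba, a subunit of activin A, rose in cDC2s from 40.1 ± 3.52 CPM to 64.5 ± 4.94 and 75.1 ± 9.27 CPM (log2 0.68 ± 0.0974 and 0.89 ± 0.107, adjusted p = 9.79e-05 and 9.8e-06).

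Of genes known as targets, some rose and others fell. Cdkn2b, a cell cycle inhibitor induced by TGF-β, was at 3.03 ± 0.25 CPM in cDC1s with WT medium, 12.9 ± 2.13 CPM with BimS and 11.0 ± 2.15 CPM with RIPK3 medium (log2 2.09 ± 0.153 and 1.86 ± 0.157, adjusted p = 4.33e-12 and 8.54e-11), and it rose in cDC2s as well (log2 1.53 and 1.22, adjusted p = 1.08e-07 and 4.84e-06). Itgae, the CD103 integrin chain, which TGF-β is known to induce in lymphocytes and which is also one of the 9 cDC1 markers, fell in cDC1s from 44.0 ± 4.02 to 32.1 ± 3.06 and 24.6 ± 0.954 CPM (log2 -0.45 and -0.84, adjusted p = 1.56e-05 and 6.7e-11), and it lay under 0.75 CPM in every cDC2 sample. Id3, a target of BMP signaling, fell in both subsets, in cDC1s from 33.9 ± 1.95 to 22.3 ± 0.827 and 17.0 ± 0.796 CPM (log2 -0.60 and -0.99, adjusted p = 7.01e-08 and 9.87e-13) and in cDC2s by 0.62 and 0.76 on the log2 scale (adjusted p = 0.00146 and 0.000659). Pmepa1, a target that restrains the signal, fell in cDC1s with BimS medium (log2 -0.43 ± 0.0658, adjusted p = 4.7e-06) and with RIPK3 medium (log2 -0.23 ± 0.0654, adjusted p = 0.0117, lost without WT replicate 2 or 3 or RIPK3 replicate 1, at 0.0781 to 0.107). Dab2, an adaptor between the receptors and Smads, fell with RIPK3 medium in cDC1s (log2 -0.86 ± 0.122, adjusted p = 6.22e-05) and with both debris media in cDC2s (log2 -0.52 and -0.69, adjusted p = 0.0029 and 0.000592, the latter lost without RIPK3 replicate 2 at 0.0724). With BimS medium in cDC1s Dab2 gave -0.23 ± 0.115 (adjusted p = 0.264, and 0.0106 with the block).

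Collagen genes that the study named beside TGF-β were at low levels. Col17a1 was at 4.10 ± 0.262 CPM in cDC1s with WT medium, 5.38 ± 0.365 CPM with BimS and 3.74 ± 0.618 CPM with RIPK3 medium. The BimS samples lay above all WT samples, with a log2 difference of 0.39 ± 0.152 (adjusted p = 0.092, and 0.0487 with the block). RIPK3 against BimS medium gave -0.53 ± 0.157 (edgeR, adjusted p = 0.0439), lost in DESeq2 (0.0724), under limma on log2 counts (0.0527) and without WT replicate 1 (0.0525), any of the BimS replicates or RIPK3 replicate 1 or 2. Col6a6 had at most 5 counts and Col5a1 at most 4 counts in any sample, and neither passed a comparison between media by adjusted p. The study gave its threshold as a P value with a minimum fold change, which is not the threshold used here.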

How the data were processed

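RNA of sorted cDC1s and cDC2s was sequenced in 17 samples (6 groups). The deposited counts are raw reads per gene: per the labels and methods, the authors trimmed reads with SeqPurge, aligned them with STAR 2.7.10a to GRCm39 with Ensembl 112 gene models and counted with gensum 0.2.1, without normalization. A deposited normalized table was not used here. Of 31239 lines, 148 carried no identifier (0.0258% to 0.0366% of the counts of a sample) and were left out. Symbols, lengths and starts came from GENCODE M39, which matched 30854 of 31091 identifiers. Reads carry no molecular identifiers.

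The 10 members and all gene lists were chosen with earlier results of these data known. Differences were tested with the quasi-likelihood test of edgeR 4.0.16 in R 4.3.3 (robust, TMM, features above 0 in 50% or more of a fit's samples), for the subsets separately (19513 and 19239 genes) and over all samples for cDC1s against cDC2s and for the interactions (19082 genes), with Benjamini-Hochberg adjustment over all genes and a threshold of 0.05. Adjusted p without a tool named come from edgeR. CPM used TMM factors over all samples, and CPM per kb the exon length. Genes of the wider list were named by rule: up to 3 largest rises and falls per comparison with an average log2 CPM of at least 3, plus those named by the study.

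Pairing by replicate number was checked through correlations of deviations from group means. Within cDC1s 9 of 9 same-numbered pairs were above 0.1 (median 0.324), against 1 of 18 with different numbers, and within cDC2s 7 of 7 (median 0.427) against 3 of 14. Across the subsets 19 of 24 same-numbered pairs were above 0.1 (median 0.21), against 5 of 48. The numbers were therefore treated as pairing samples within a subset, although the methods name no pairing. With few samples left per term, the blocked fits draw their spread largely from other genes, so their p-values do not measure the spread over the pairs alone.

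Alternatives were DESeq2 1.42.0, RLE factors, total counts only, filterByExpr, no filter, limma 3.58.1 on log2(count + 1) (the study's model, called here by adjusted p with no fold threshold), the replicate block and leaving out each sample. Simulated counts with 200 genes changed by 1 on the log2 scale were used to test the scripts. For BimS against WT medium it recovered 181 in cDC1s (19513 genes, 9.05% of calls false), 176 in cDC2s (19239 genes, 5.88%) and 167 in the interaction (19082 genes, 1.76%). The false share in cDC1s and in cDC2s was above the threshold used. Apart from Itgb8, the differences of members called between media by edgeR were smaller than 1 on the log2 scale, so the recovery does not measure power for them.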

Additional observations from a re-analysis of the deposited data

Results flagged for a closer look

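The following responses differed between the subsets in the test of the difference itself (response of cDC1s less that of cDC2s, edgeR over all 17 samples), beside 164 genes in all for BimS and 217 for RIPK3 medium. Tgfb1 differed for RIPK3 against WT medium (log2 -0.44 ± 0.0898 SE, adjusted p = 0.00758). Runx3, a transcription factor that acts with Smads, differed for BimS (log2 -0.36 ± 0.0806, adjusted p = 0.0199) and for RIPK3 medium (-0.37 ± 0.0853, adjusted p = 0.0251). Inhba differed for BimS (-0.67 ± 0.154, adjusted p = 0.0269) and for RIPK3 medium (-0.77 ± 0.159, adjusted p = 0.00805). Sik1, a kinase that acts with Smad7 on the receptor, differed for RIPK3 medium (-0.42 ± 0.106, adjusted p = 0.0437). Each of these calls was lost in at least 1 alternative. Without the second sample of cDC2s with RIPK3 medium the adjusted p for RIPK3 medium was 0.103 for Tgfb1, 0.242 for Runx3 and 0.397 for Sik1, and without the first it was 0.0762 for Inhba. Without the first cDC1 sample with WT medium the adjusted p for BimS medium was 0.072 for Runx3 and 0.116 for Inhba. No group had 4 or more samples, so single samples were not tested for standing apart.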

How the results depend on the processing

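The replicate number as a block changed the number of members called from 4 to 7 for RIPK3 against BimS medium in cDC1s, and in cDC2s from 2 to 5 for BimS against WT, from 3 to 7 for RIPK3 against WT and from 1 to 6 for RIPK3 against BimS medium. The interaction with BimS medium went from 0 to 1 with the block, with DESeq2 and without a filter, and that with RIPK3 medium from 1 to 0 under limma on log2(count + 1). Leaving out single samples gave 2 to 5 members for RIPK3 against BimS medium in cDC1s (2 without BimS replicate 3), 0 to 2 in cDC2s (0 without BimS replicate 1), and 0 to 1 for the interaction with RIPK3 medium (0 without cDC2 RIPK3 replicate 2), and 4 to 7, 4 to 6, 2 to 2 and 2 to 4 for the comparisons with WT medium. Reversed directions occurred under limma on log2(count + 1), for cDC1s against cDC2s, in Ski (0.19), Junb (0.0877) and Itgb1 (0.18), where that setting moved the median of all genes by 0.17. Over the members and named genes, 4982 values kept their call, 118 lost it, 90 gained it and 3 reversed. Itgb8 in cDC1s had no adjusted p in DESeq2 for BimS against WT and RIPK3 against BimS medium.

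Counts over all genes moved by more than 1.5 times with the block (810 to 1721 for RIPK3 against BimS in cDC1s, and 1349 to 4103, 1387 to 4124 and 73 to 2755 in cDC2s), under limma (2576 to 1510 for BimS against WT and 810 to 403 for RIPK3 against BimS in cDC1s, 73 to 148 in cDC2s), and, for RIPK3 against BimS in cDC2s, with DESeq2 (141), filterByExpr (46) and no filter (300). The interaction counts of 164, 217 and 6 became 442, 449 and 27 with the block, 67, 109 and 3 under limma, 315, 371 and 25 without a filter, and 261, 305 and 17 with DESeq2. Scaling by total counts only moved the median of all genes by -0.10 on the log2 scale for RIPK3 against WT in cDC2s, and limma on unscaled counts moved it by -0.12, -0.15 and 0.17 for RIPK3 against WT in cDC1s and in cDC2s and for cDC1s against cDC2s. With total counts only, the share of calls that were higher went from 55.4% to 34.8% and from 50.5% to 30.2% in cDC1s (BimS and RIPK3 against WT) and from 54.3% to 29.7% and from 54.5% to 31.8% in cDC2s. Under limma these shares became 50.9% and 27.9% in cDC1s and 42.1% and 22.75% in cDC2s. For RIPK3 against BimS in cDC1s the share went from 46.7% to 14.4% under limma. Leaving out 1 sample took the count over all genes to 489 (RIPK3 against BimS in cDC1s, without BimS replicate 3), 783 (BimS against WT in cDC2s, without WT replicate 2), 622 and 0 (RIPK3 against WT and BimS in cDC2s, without RIPK3 replicate 2) and 214 (the latter, without WT replicate 3). The interaction counts fell to 93 (without cDC1 WT replicate 1), 111 and 0 (without cDC2 RIPK3 replicate 2), and the third rose to 10 (without cDC2 WT replicate 3). The block changed no other call of a member than those given beside the results.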

Other observations

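For each member, the gene with the most similar pattern over the 17 samples was found among 7774 genes by Pearson's r of log2 CPM, as a description only, since all points share the subset and the medium. The nearest genes were Per1 for Tgfb1 (r = 0.909), Ywhab for Itgb8 (0.958), Hectd4 for Tgfbr1 (0.989), Zfhx2 for Tgfbr2 (0.994), Tifab for Smad3 (0.995), Dnaja2 for Smad7 (0.991), Ap5z1 for Smurf1 (0.937), Ncoa2 for Ski (0.904), Smchd1 for Skil (0.993) and Cltb for Tgfbi (0.981).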
